A study of Mus musculus with 4 samples.

Results

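The growth hormone axis of the liver was described here through 10 genes, taken by name out of 55487 genes in the deposited tables: the growth hormone receptor Ghr, its kinase Jak2, the transcription factors Stat5a and Stat5b, the feedback inhibitors Socs2 and Cish, the hormone Igf1, its carrier subunit Igfals, and the repressors Bcl6 and Cux2. All 10 were found by symbol, and all 10 passed the filter on low counts. The samples were livers of 4 female mice on the FVB background, aged 11 weeks and fed standard chow. In 2 PA mice, labelled hypomorphic Pcca-/- (A138T), the gene for the alpha subunit of propionyl-CoA carboxylase (a mitochondrial enzyme of propionate breakdown) is lost and an altered form with reduced function is present. The other 2 mice were wild type (WT). The labels do not say how the altered form is expressed, and they do not name separate cages, litters or days; the series' design text calls the replicates biological. Polyadenylated RNA was sequenced, and the comparison asked how liver transcripts differ between the genotypes. The tests set the difference between genotypes against the spread between the 2 livers of each, with information on spread shared across genes. Their results cover these 4 livers.

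Growth hormone binds its receptor on hepatocytes and activates the receptor-bound kinase JAK2, which phosphorylates STAT5A and STAT5B. The phosphorylated factors enter the nucleus and switch on Igf1, Igfals and the inhibitors Socs2 and Cish, which act back on the receptor. In rodents, males release growth hormone in sharp pulses and females more steadily, so that STAT5 also drives much of the difference between male and female liver. BCL6 competes with STAT5 for sites in chromatin, and CUX2 is a repressor made mainly in female liver. Activity of the pathway lies in phosphorylation and secretion of growth hormone, which RNA levels do not measure.

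STAT5 dimers bind the motif TTCNNNGAA, which reads the same on both strands. RefSeq promoter windows of GRCm38.p6, running from 250 bases before to 50 after a transcription start, were given for 9 of the 10 genes, 16 windows in all. No window was given for Socs2. The motif was found in windows of Cish, Igfals and Bcl6, 8 matches in all. Of 32851 windows of the same length in the genome, 8.3% held at least 1 match and 0.457% at least 2. These shares are per window and a gene can have several windows, so they do not compare directly with counts of genes or matches. The windows of Cish and Bcl6 with more than 1 match are shown, since these genes are a STAT5-induced inhibitor and a repressor of STAT5 targets. Capitals mark the motif, and each RefSeq sequence runs 5′ to 3′ on the strand of the gene. The Cish stretch lies at chr9:107296656-107296681 on the plus strand, in the untranslated part of an annotated exon, and the Bcl6 stretch at chr16:23981360-23981454 on the minus strand, outside the annotated exons.
Cish: gttTTCCTGGAAagTTCTTGGAAatc
Bcl6: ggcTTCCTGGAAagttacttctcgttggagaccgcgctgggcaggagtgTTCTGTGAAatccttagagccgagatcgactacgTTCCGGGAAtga
For Igfals, 2 of 3 windows held 1 match each, TTCTCAGAA at chr17:24877608-24877616 and TTCCTAGAA at chr17:24878173-24878181, and the other Bcl6 window held 1. The windows of Ghr, Jak2, Stat5a, Stat5b, Igf1 and Cux2 held no match in these letters. Binding was not measured.

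Gene counts summed to 25990553 and 30110400 in PA replicates 1 and 2, and to 29627033 and 25575016 in WT replicates 1 and 2, so that 3 counts correspond to 0.0996 to 0.117 CPM (counts scaled to library size). Pcca itself was at 34.2 and 47.4 CPM in PA livers, against 60.3 and 58.9 CPM in WT livers (edgeR log2 fold change -0.55 ± 0.22, adjusted p = 0.398). Here and below, fold changes are PA over WT and ± after a log2 fold change is its standard error. Counts per gene cannot tell a mutant from a normal Pcca transcript. Albumin took 120638 and 147200 CPM in PA livers, against 130577 and 149441 CPM in WT livers. The X-inactivation transcript Xist was at 311 and 351 CPM in PA livers and 452 and 391 CPM in WT livers, while Ddx3y, Eif2s3y, Kdm5d and Uty, on the Y chromosome, had 0 to 3 counts in each library. The share of counts from mitochondrially encoded genes was 13.6% and 8.98% in PA replicates 1 and 2 and 6.90% and 7.38% in WT replicates 1 and 2. It was above both WT libraries in both PA libraries, and PA replicate 1 stood apart. All 13 of these genes tested had a log2 fold change above 0 (median 1.11). Of them edgeR called 1 higher, beside 0.264% of all genes tested, and DESeq2 called 8 higher, beside 1.27%. Markers of red blood cells summed to 11.9 and 16.9 CPM in PA livers and to 88.9 and 47.8 CPM in WT livers. Of 5 tested, edgeR called 2 lower (Hbb-bs and Hbb-bt), beside 0.548% of all genes tested. Reads mapped to several places were 13.5% in PA replicate 1 and 9.11 to 9.42% in the other 3.

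The induced genes averaged lower in PA livers than in WT livers, and the signalling components differed less, but none of the 10 genes passed edgeR's threshold. The median log2 fold change was -1.07 over Socs2, Cish, Igf1 and Igfals (range -2.39 to -0.79) and -0.10 over Ghr, Jak2, Stat5a and Stat5b (range -0.42 to 0.25), against 0.00 over all 14411 genes tested. With edgeR's quasi-likelihood test and an adjusted p under 0.05, 0 of the 10 genes were called, where 0.264% of all genes tested were called higher and 0.548% lower in PA, 0.812% in all. At an unadjusted p under 0.05, 3 of the 10 were lower (Socs2, Cish and Cux2) and 0 higher, beside 5.93% and 5.88% of all genes tested. DESeq2 called 2 of the 10, Socs2 and Cish, both lower, beside 1.69% of genes called lower, 1.27% higher and 2.95% in all. limma-voom called 0 of the 10, beside 0.604% of all genes (0.194% higher and 0.409% lower). The CPM of the groups did not overlap for 5 genes, all lower in PA: Jak2, Socs2, Cish, Igf1 and Cux2. Over all genes tested, 21.9% were lower and 21.3% higher without overlap.

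**Figure D1:**
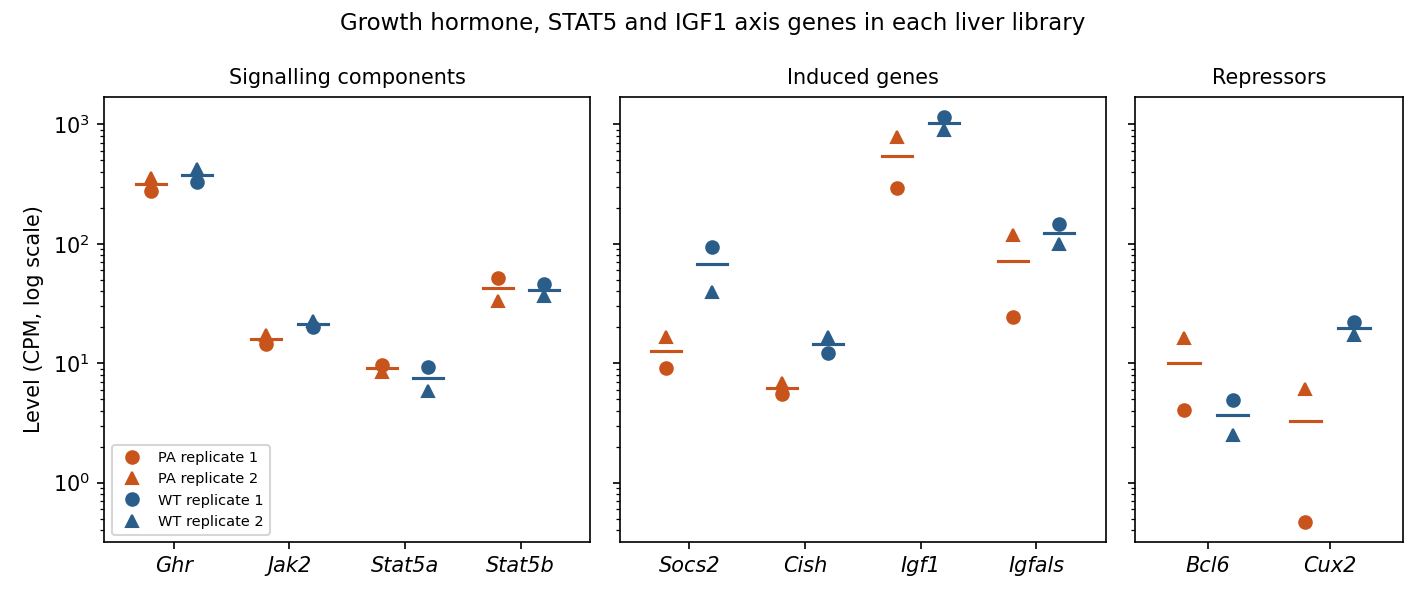
Level of each of the 10 genes in each library, in CPM on a log scale, with PA libraries (orange) left of WT libraries (blue); circles are replicate 1, triangles replicate 2 and bars the mean of 2. The genotypes overlap for Ghr, Stat5a, Stat5b, Igfals and Bcl6. Jak2, Socs2, Cish, Igf1 and Cux2 lie lower in both PA libraries than in both WT libraries. Igf1, Igfals, Bcl6 and Cux2 differ widely between the 2 PA libraries.

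Positions of genes are from the GENCODE annotation of GRCm38. Among the signalling components, Ghr (chr15:3317760-3583492, minus strand), which encodes the receptor at the hepatocyte surface, was read at 278 and 357 CPM in PA livers and at 328 and 426 CPM in WT livers. The groups overlapped, and the lowest value belonged to PA replicate 1. The difference was smaller than its error (log2 fold change -0.25 ± 0.26, edgeR adjusted p = 0.778). With single libraries left out it ranged from -0.44 (PA replicate 2) to -0.04 (WT replicate 2). Jak2 (chr19:29251828-29313080, plus strand), the kinase held on the receptor's inner side, was at 14.5 and 17.2 CPM in PA livers and at 20.0 and 22.5 CPM in WT livers. Both PA values lay below both WT values, and the log2 fold change of -0.42 ± 0.20 did not pass the test (edgeR adjusted p = 0.493).

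Stat5b (chr11:100780731-100850724, minus strand), the STAT5 form that dominates in hepatocytes, was at 51.7 and 33.2 CPM in PA livers and at 45.8 and 36.3 CPM in WT livers. The PA values lay on either side of the WT values, and edgeR gave a log2 fold change of 0.05 ± 0.26 (adjusted p = 0.968). Stat5a (chr11:100859351-100885169, plus strand), its neighbour and close paralog, was at 9.58 and 8.51 CPM in PA livers and at 9.32 and 5.85 CPM in WT livers, and the log2 fold change was 0.25 ± 0.28 (adjusted p = 0.786 by edgeR). Paralogs can share reads. With RSEM expected counts, which share such reads out, the log2 fold changes were 0.35 for Stat5a and 0.11 for Stat5b. The sign of both depended on single libraries, since Stat5b was at -0.30 with PA replicate 1 left out and at -0.10 with WT replicate 2 left out, where Stat5a was at -0.04.

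The feedback inhibitors had the smallest p-values of the 10 genes. Socs2 (chr10:95385362-95417180, minus strand) encodes an adaptor that marks the growth hormone receptor for degradation, and mice that lack it grow large. Socs2 was at 9.11 and 16.5 CPM in PA livers and at 94.5 and 39.9 CPM in WT livers. Both PA libraries were below both WT libraries, although the WT libraries themselves differed 2.37-fold. Means were 12.8 ± 5.20 CPM in PA and 67.2 ± 38.6 CPM in WT (SD, n = 2 each), and the log2 fold change was -2.39 ± 0.46 (edgeR adjusted p = 0.0823; DESeq2 adjusted p = 5.08e-07; limma-voom adjusted p = 0.0967). With PA replicate 1 left out, Socs2 was at -2.03 (edgeR adjusted p = 0.0743), and with PA replicate 2 left out at -2.89 (0.0273). Leaving out WT replicate 1 gave -1.65 (adjusted p = 0.0434), and leaving out WT replicate 2 gave -2.87 (0.00026). Each such fit keeps 1 mouse on one side, whose variation is assumed to equal that of the other genotype. The red blood cell markers had the same order over the 4 libraries as Socs2, and their part in the result was not tested.

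Cish (chr9:107296026-107302784, plus strand), whose protein occupies phosphorylated sites on cytokine receptors, was at 5.57 and 6.86 CPM in PA livers and at 12.2 and 16.6 CPM in WT livers. The 2 PA libraries were close together and below both WT libraries. Means were 6.22 ± 0.912 CPM in PA and 14.4 ± 3.12 CPM in WT (SD, n = 2 each), and the log2 fold change was -1.20 ± 0.25 (edgeR adjusted p = 0.105; DESeq2 adjusted p = 0.0139; limma-voom adjusted p = 0.118). Without PA replicate 2 the log2 fold change was -1.37 and edgeR called it (adjusted p = 0.0485), while leaving out PA replicate 1 gave an adjusted p of 0.101, WT replicate 1 one of 0.0682 and WT replicate 2 one of 0.402. The gene models Gm17040 and Gm17041 lie on the opposite strand of the Cish locus. Counting without strand gave 80 and 116 Cish counts in PA and 235 and 248 in WT, fewer than the 142 and 204 in PA and 373 and 422 in WT on its own strand, and the log2 fold change from counts without strand was -1.29.

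The hormone genes were low in PA replicate 1 and near WT levels in PA replicate 2. Igf1 (chr10:87858265-87937042, plus strand) encodes the circulating growth factor through which growth hormone acts on bone and muscle, and hepatocytes make most of it. Igf1 was at 297 and 786 CPM in PA replicates 1 and 2 and at 1161 and 904 CPM in WT livers. Both PA values lay below both WT values, but the PA libraries differed 2.65-fold and the WT libraries 1.28-fold. Means were 541 ± 346 CPM in PA and 1033 ± 182 CPM in WT (SD, n = 2 each), and the log2 fold change was -0.93 ± 0.45 (edgeR adjusted p = 0.491). It was -0.39 without PA replicate 1 (adjusted p = 0.438) and -1.80 without PA replicate 2 (adjusted p = 0.0109).

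Igfals (chr17:24865997-24882010, plus strand) encodes the acid-labile subunit, a liver protein that holds IGF1 in a stable complex in blood. Igfals was at 24.3 and 118 CPM in PA replicates 1 and 2 and at 147 and 100.2 CPM in WT livers, so the second PA library lay between the WT libraries. Means were 71.4 ± 66.5 CPM in PA and 124 ± 33.0 CPM in WT (SD, n = 2 each), and the log2 fold change was -0.79 ± 0.63 (edgeR adjusted p = 0.693). It was -0.06 without PA replicate 1 (adjusted p = 0.934) and -2.35 without PA replicate 2 (adjusted p = 0.00748). The 8 markers of Kupffer cells and macrophages, cells that can also make Igf1, summed to 274 and 396 CPM in PA livers and to 613 and 541 CPM in WT livers. Of the 8, edgeR and limma-voom called 0, beside 0.812% and 0.604% of all genes tested. DESeq2 called 2 lower, beside 1.69% of all genes. At an unadjusted edgeR p under 0.05, 4 were lower and 0 higher, beside 5.93% and 5.88% of all genes tested. All of those markers were detected, and their part in the result was not tested. In whole liver, fewer cells of a type and less RNA per cell cannot be told apart.

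**Figure D2:**
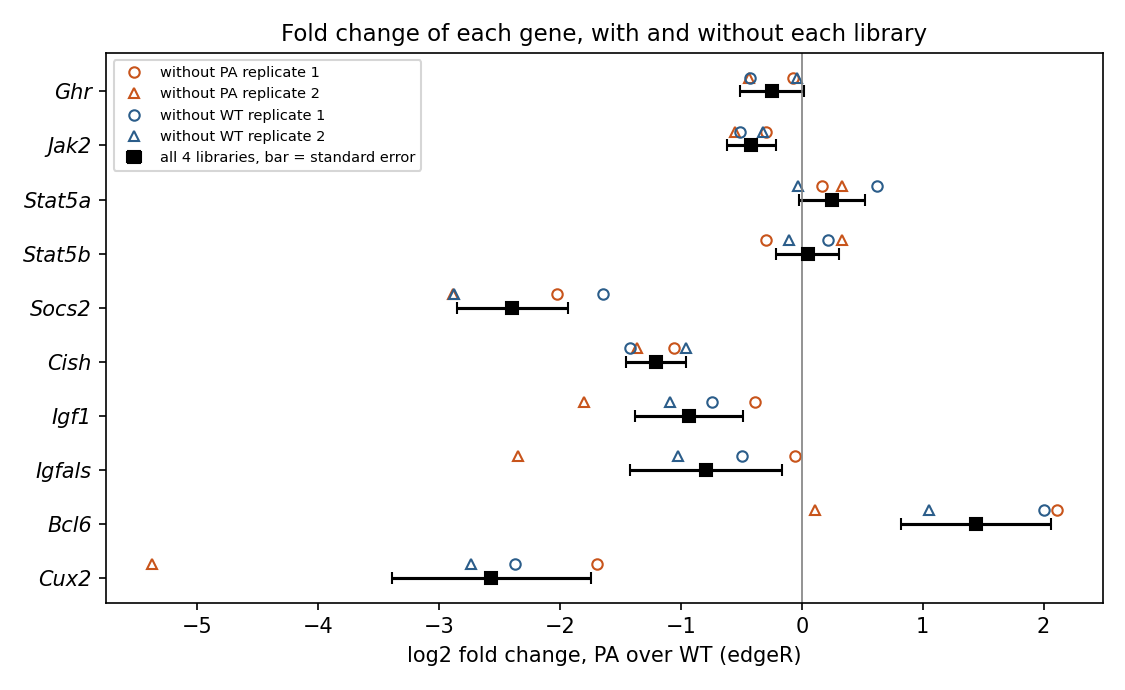
The log2 fold change of each gene, PA over WT, from edgeR with all 4 libraries (black squares, bars are the standard error) and with each library left out (open symbols). Cux2 runs from -5.38 (PA replicate 2 left out) to -1.69 (PA replicate 1 left out). The values of Igf1, Igfals and Bcl6 also move with the PA library left out, while those of Cish stay between -1.42 and -0.96.

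Both repressors differed widely between the PA libraries, Cux2 the most of the 10 genes. Cux2 (chr5:121856366-122050102, minus strand), which in mouse liver is made mainly by females and represses male-biased genes, was at 0.471 and 6.09 CPM in PA replicates 1 and 2, which are 12 and 181 counts, and at 22.4 and 17.1 CPM in WT livers. Both PA values were below both WT values, and the PA libraries differed 12.9-fold. The Cux2 log2 fold change was -2.57 ± 0.82 (edgeR adjusted p = 0.277; DESeq2 adjusted p = 0.68; limma-voom adjusted p = 0.172). With PA replicate 1 left out it was -1.69 (edgeR adjusted p = 0.0208), with PA replicate 2 left out -5.38 (0.000724), both called, whereas leaving out WT replicate 1 gave an adjusted p of 0.196 and leaving out WT replicate 2 one of 0.0638.

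Bcl6 (chr16:23965052-23988852, minus strand), whose own transcription is lowered by growth hormone in liver, was the one gene of the 10 with a log2 fold change above 1. It was at 4.04 and 16.2 CPM in PA replicates 1 and 2 and at 4.92 and 2.51 CPM in WT livers. PA replicate 2 was above all others and PA replicate 1 lay between the WT libraries. The Bcl6 log2 fold change was 1.44 ± 0.62 (adjusted p = 0.431 by edgeR). Without PA replicate 1 it was 2.11 and called (adjusted p = 0.0234), and without PA replicate 2 it was 0.11 (adjusted p = 0.918).

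The 2 PA livers differed from each other in much of the axis. PA replicate 1 held the lowest CPM of the 4 libraries for 7 of the 10 genes, all 4 induced genes among them, beside 28% of all genes tested. Relative to the WT mean on a log2(CPM + 0.5) scale, the median of the 4 induced genes was -2.06 in PA replicate 1 and -0.70 in PA replicate 2, and the medians of the signalling components were -0.06 and -0.19. Over all genes tested these medians were 0.00 and -0.01. The 2 libraries of a genotype differed by a median of 2.23-fold in PA and 1.41-fold in WT for the induced genes, by 1.23-fold and 1.28-fold for the signalling components, and by 1.27-fold and 1.17-fold over the 14379 tested genes detected in every library. PA replicate 1 is also the library with the highest mitochondrial share, and its part in these values was not tested. Without the mitochondrially encoded genes, 0 of the 10 were called higher and 0 lower, as with all genes. The log2 fold changes hardly moved, from -0.93 to -0.92 for Igf1 and from -0.79 to -0.78 for Igfals. That fit removes only those genes from the counts, so it does not test the part of the share.

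**Figure D3:**
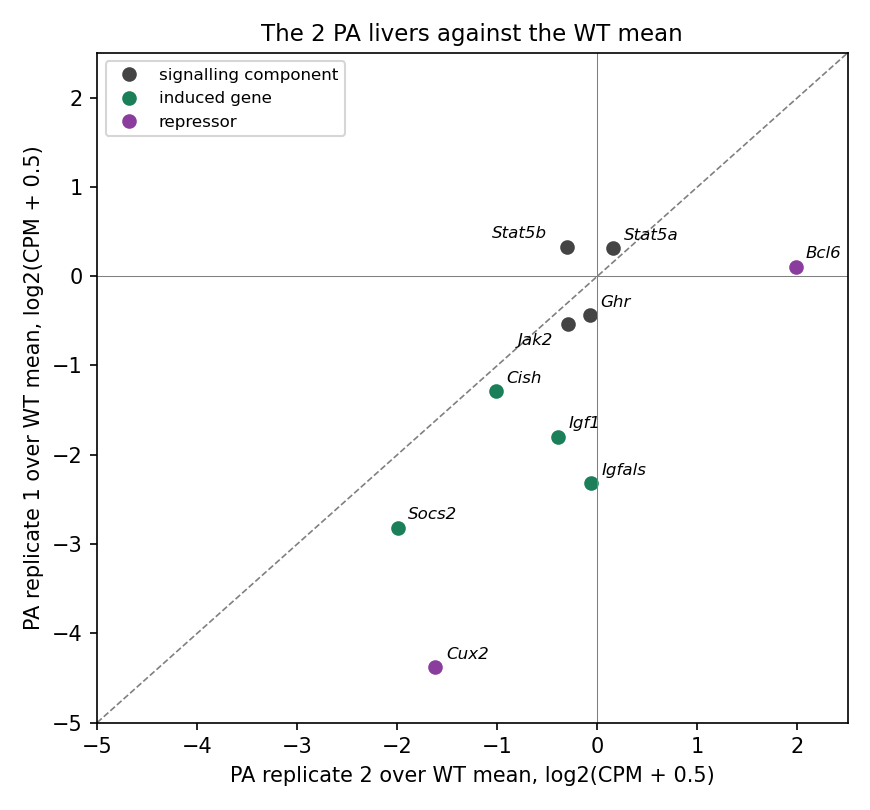
Each gene's level in PA replicate 1 (vertical axis) and PA replicate 2 (horizontal axis) relative to the WT mean, as differences of log2(CPM + 0.5); the dashed line marks equal values. Socs2 and Cish (-1.29 and -1.01) lie below -1 on both axes, Igf1, Igfals and Cux2 lie far below the line, and Bcl6 lies at 0.11 in PA replicate 1 and 1.98 in PA replicate 2.

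Levels were compared between genes per length, as TPM (transcript abundance scaled to a fixed library total) from RSEM. In WT livers Igf1 was the most abundant transcript of the axis at 922 and 626 TPM, and Ghr followed at 181 and 207 TPM. Igfals at 87.6 and 56.4 TPM and Socs2 at 68.0 and 24.6 TPM came next, with levels that overlapped. Stat5b at 10.9 and 8.33 TPM, Cux2 at 8.41 and 5.66 TPM, Cish at 4.96 and 7.05 TPM and Jak2 at 5.38 and 5.32 TPM each overlapped the next in this order. Stat5a at 2.92 and 1.70 TPM and Bcl6 at 1.76 and 0.90 TPM were lowest and overlapped each other.

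In PA livers Igf1 remained first in TPM, at 187 and 482, and Ghr second at 103 and 161. Socs2 was at 4.52 and 9.90 TPM, which overlapped Stat5b at 9.34 and 7.48 TPM, although in WT livers Socs2 lay above Stat5b in both libraries. Cish at 1.44 and 2.59 TPM and Cux2 at 0.11 and 1.98 TPM were the lowest 2 by mean. TPM values are shares within a library and were not tested.

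RSEM also gives, for each gene, the mean length of its transcripts weighted by their estimated abundance. For Ghr, whose annotated transcripts run from 472 to 4175 bases and which in mouse also gives a short transcript for the secreted growth hormone binding protein, it was 2416 and 2488 bases in PA livers and 2180 and 2331 bases in WT livers. Values for Jak2 were 4775 and 4634 bases in PA and 4341 and 4504 bases in WT. The PA estimate was the longer one in both libraries for 4 of the 10 genes (Ghr, Jak2, Stat5b and Cish) and the shorter one for 0. Over all genes tested it was longer in both for 17.2% and shorter in both for 10.7%. These are estimates with no test, and the gene-level files do not give the single transcripts.

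The lists of other pathway and IGF genes held no edgeR call. Of 15 other genes of growth hormone signalling, all tested, edgeR called 0, DESeq2 0 and limma-voom 0, with 1 lower at an unadjusted p under 0.05, and their median log2 fold change was -0.12. That gene was Tyk2, a kinase related to JAK2, at 17.7 and 16.0 CPM in PA livers and 24.0 and 22.7 CPM in WT livers (log2 fold change -0.47, edgeR adjusted p = 0.401). Prlr, the prolactin receptor, which also signals through STAT5, was at 73.8 and 225 CPM in PA livers and 316 and 267 CPM in WT livers (log2 fold change -0.96 ± 0.48, edgeR adjusted p = 0.497). Its order over the libraries was that of Igf1. With PA replicate 2 left out, edgeR called a gene of this list lower. Of the fits with a library left out, that fit also had the most calls over all genes.

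Of 15 inhibitors and phosphatases, 14 were tested and edgeR, DESeq2 and limma-voom called 0, with 0 at an unadjusted edgeR p under 0.05 and a median log2 fold change of -0.02. They include Socs3, the inhibitor induced by interleukin signals, at 6.32 and 3.84 CPM in PA livers and 3.55 and 4.36 CPM in WT livers, and Socs6 at 10.7 and 12.6 CPM in PA livers and 8.15 and 8.80 CPM in WT livers (edgeR adjusted p = 0.729 and 0.47). Of 15 genes of the IGF system, 10 were tested, again 0 were called by any of the 3 tools, and 1 was higher at an unadjusted edgeR p under 0.05 (median -0.02). That was Igf2r, the receptor that clears IGF2, at 27.0 and 38.1 CPM in PA livers and 19.3 and 22.1 CPM in WT livers (log2 fold change 0.65, edgeR adjusted p = 0.326). Igfbp7 was at 52.1 and 47.1 CPM in PA livers and 62.6 and 63.3 CPM in WT livers (edgeR adjusted p = 0.547). Igfbp3, the main carrier of IGF1 in blood, was at 12.0 and 17.2 CPM in PA livers and 14.1 and 15.3 CPM in WT livers.

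Of 18 liver transcription factors tied to growth hormone action, all tested, edgeR, DESeq2 and limma-voom called 0, while 2 were lower and 1 higher at an unadjusted edgeR p under 0.05 (median log2 fold change -0.07). Cebpb, a factor of the acute phase and of gluconeogenesis, was at 24.7 and 14.8 CPM in PA livers and 9.68 and 10.1 CPM in WT livers (edgeR adjusted p = 0.209). Trim24, a transcriptional cofactor, was at 26.9 and 41.1 CPM in PA livers and 63.6 and 54.9 CPM in WT livers (edgeR adjusted p = 0.267). With a library left out, edgeR called some of the 18 lower in each fit, and most without PA replicate 2, where a call higher was also made. Of these fits, the one without PA replicate 2 also had the most calls over all genes.

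Calls were made among the sex-biased genes and the genes of fasting. Of 20 male-biased genes 16 were tested, 7 fell and 0 rose by edgeR, with a median log2 fold change of -1.86; of 25 female-biased genes, all tested, 6 fell and 0 rose, with a median of -1.06. Over all genes tested, edgeR called 0.548% lower and 0.264% higher. DESeq2 called 11 male-biased genes lower and 2 higher, and 9 female-biased genes lower and 0 higher. Its shares over all genes were 1.69% lower and 1.27% higher. The 2 called higher were Cyp2d9 (log2 fold change 1.69, DESeq2 adjusted p = 2.87e-05) and Gstp1 (1.37, DESeq2 adjusted p = 0.00108). limma-voom called 6 in each list, beside 0.604% of all genes. Slco1a1, a male-biased transporter, fell to 0.353 and 0.774 CPM in PA livers, against 350.1 and 218 CPM in WT livers (log2 fold change -8.94 ± 0.49, edgeR adjusted p = 0.000535). These lists were chosen with earlier results of the same libraries known, so their direction is not independent evidence. Serpina1e, a male-biased protease inhibitor, fell to 6.67 and 15.1 CPM in PA livers, against 212 and 201 CPM in WT livers (log2 fold change -4.24 ± 0.41, edgeR adjusted p = 0.00664). Cyp3a44, a female-biased cytochrome P450, fell to 0.981 and 1.01 CPM in PA livers, against 459 and 414 CPM in WT livers (log2 fold change -8.77, edgeR adjusted p = 0.000112). Serpina1e and Cyp3a44 belong to families of close paralogs, among which reads can be split. With any 1 library left out, genes of both lists were called lower. More genes were also called over all genes in each of these fits than with all 4 libraries, so the numbers of calls are not compared. Calls in the other direction also appeared in these fits. Male-biased genes were called higher in each fit except the one without WT replicate 2, and female-biased genes only in the fit without PA replicate 1. PA replicate 1 was the lowest library for 11 of the 16 tested male-biased and 14 of the 25 female-biased genes, beside 28% of all genes tested.

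Of 12 genes that respond to fasting or to loss of growth hormone action, all tested, 2 rose and 0 fell by edgeR. Their median log2 fold change was 0.65. Over all genes tested, 0.264% were called higher and 0.548% lower. Cyp4a14, a fatty acid hydroxylase, rose to 1493 and 1783 CPM in PA livers, against 441 and 351 CPM in WT livers (log2 fold change 2.05 ± 0.28, edgeR adjusted p = 0.0295). Vldlr, a lipoprotein receptor, rose to 21.9 and 33.6 CPM in PA livers, against 6.55 and 8.48 CPM in WT livers (log2 fold change 1.89 ± 0.28, edgeR adjusted p = 0.0385). With 1 library left out, genes of this list were called higher in each fit except the one without WT replicate 1, although each such fit called more genes over all genes. Igfbp1, a binding protein that rises when insulin is low, was at 216 and 54.0 CPM in PA livers and at 198 and 24.1 CPM in WT livers, higher in replicate 1 of both genotypes (edgeR adjusted p = 0.945).

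**Figure D4:**
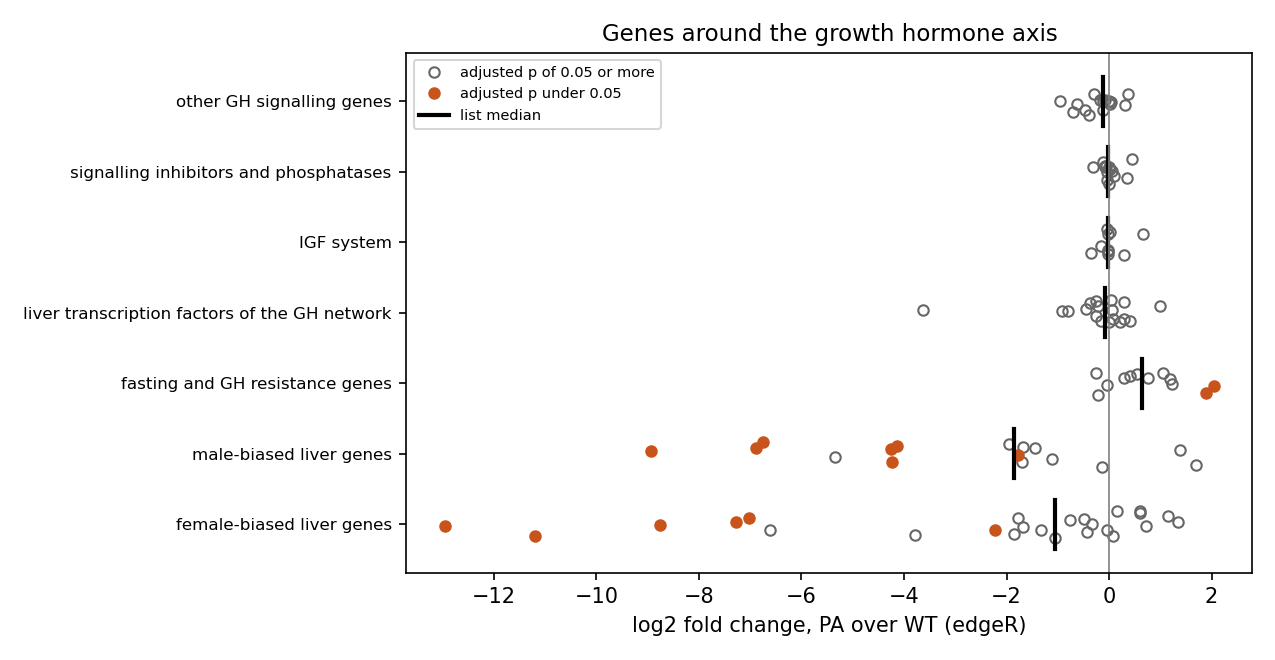
The log2 fold change, PA over WT, of each tested gene in the 7 lists around the axis; filled points passed an edgeR adjusted p of 0.05, open points did not, and black bars are list medians. The first 4 lists are centred near 0 with no call, and the calls lie among the fasting genes (2 higher), the male-biased genes (7 lower) and the female-biased genes (6 lower); fitted values of genes with 0 to 3 PA counts depend on the prior count.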

How the data were processed

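Per the submitters' processing notes, reads were processed with STAR 2.7.6a and RSEM 1.3.3 on GRCm38; the annotation release is not given in the sources used here. The deposited STAR tables hold raw counts per gene, and the column for the opposite strand, with 97.0 to 97.1% of stranded counts, was used. The 4 summary lines, which name no gene, held 28.1 to 34.3% of reads and were left out. The deposited RSEM tables hold expected counts, rounded before testing, TPM, FPKM and mean transcript length (other), per the file headers; FPKM deposited by the authors was not used. Symbols and positions came from GENCODE M21 (55227 of 55487 identifiers matched).

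PA was tested against WT with edgeR 4.0.16 (quasi-likelihood, TMM, filterByExpr, prior count of 0.125) in R 4.3.3, adjusted over all tested genes by Benjamini-Hochberg. Standard errors are the log2 fold change over the square root of F. DESeq2 1.42.0 and limma 3.58.1 were alternatives. The steps were tested on simulated data with the trended spread of these libraries. There edgeR recovered 28.7% of genes given a log2 fold change of 1 in either direction and 91.75% of those given 2. Of its calls, 3.97% were unchanged genes. Genes whose replicates differ more than the trend are not covered by these shares. With 2 against 2, an exact permutation test of one gene cannot go below p = 0.333, so none is given. Precision from counts covers counting error only. As a check for duplicated libraries only, the chi-square per degree of freedom between replicates was 135 in PA and 46.3 in WT.

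The members and lists were chosen with earlier results of these data known. Named genes are the 10 genes of the axis, Pcca, up to 4 called genes of each list or its 2 of smallest p, and abundant markers; no member was called, so no genes of like pattern were sought. Mup7, Ugt2b38, Cyp3a41a, Cyp3a41b and Cyp3a16, which the rule also names, and further markers enter the counts and sums only, and 1 further gene is not reported here. Summed CPM of other marker lists in PA replicates 1 and 2 and WT replicates 1 and 2 was 145994, 175175, 161432 and 178510 for hepatocytes, 195, 198, 241 and 223 for endothelium, 478, 468, 453 and 468 for stellate cells, 36.9, 39.9, 40.1 and 54.4 for cholangiocytes and 9.30, 17.3, 21.0 and 18.3 for lymphocytes, with 0 called. Igfbp3, Trim24, Igfbp1, Cyp2d9, Gstp1 and the genes of the closing section were named after their values were seen.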

Additional observations from a re-analysis of the deposited data

Results flagged for a closer look

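Counts on the strand opposite to the Bcl6 transcript, from a column not used for any comparison, were 32 and 44 in PA replicates 1 and 2 and 70 and 20 in WT replicates 1 and 2, above the limit of 3 counts that a count of 0 allows. They made up 23.7% and 8.40% of stranded Bcl6 counts in PA livers and 31.7% and 23.8% in WT livers, where the other genes of the axis had at most 1.32%, except Cux2 in PA replicate 1 with 20% (3 of 15 counts). The annotation places the gene model Gm37419 on that strand of the Bcl6 locus. Counted without strand, the log2 fold change of Bcl6 was 1.13, against 1.44 on its own strand.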

How the results depend on the processing

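Processing was varied in 13 ways, and in 1 chosen after seeing the data (without the mitochondrially encoded genes), each for every gene of the axis and each list. Genes higher and lower in PA were 38 and 79, against 186 and 248 with DESeq2, 414 and 488 with no filter on low counts, and 50 to 239 and 105 to 261 with 1 library left out. Genes of the axis called higher were 1 with no filter on low counts and 0 to 1 with a library left out; those called lower were 2 with DESeq2, 4 with no filter and 1 to 5 with a library left out. Of the fits with a library left out, the one without PA replicate 2 called the most genes of the axis lower. That fit also called the most genes lower over all genes. The replicate number as a block gave 126 higher and 192 lower genes. It called 3 genes of the axis lower (Socs2, Cish and Cux2), with 2 male-biased genes called higher and 11 lower. Shares of all genes tested are not given for the fits with a library left out, with no filter or with the block. The numbers of axis calls are therefore not compared between these fits. Deviations of same-numbered libraries correlated at -0.09 over 14411 genes, so the numbers were not taken to pair the libraries. The median of the induced genes ranged from -2.07 without PA replicate 2 to -0.72 without PA replicate 1. With 1 library left out, Stat5a ranged from -0.035 (without WT replicate 2) to 0.62 and Stat5b from -0.30 (without PA replicate 1) to 0.33, and Stat5b was also below 0 without WT replicate 2 (-0.10) and with library sizes only (-0.0019). The other 8 genes kept their direction under all 14. The cause was not tested.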

Other observations

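Several other transcription factors of hepatocytes were lowest in PA replicate 1, as Igfals and Igf1 were; they were picked out after their values were seen, and none was called by edgeR. Onecut1, a hepatocyte factor induced by growth hormone in rodents, was at 1.85 and 7.34 CPM in PA replicates 1 and 2 and at 9.85 and 7.66 CPM in WT livers (edgeR adjusted p = 0.578). Esr1, the estrogen receptor, was at 17.5 and 55.0 CPM in PA replicates 1 and 2 and at 46.8 and 52.7 CPM in WT livers (edgeR adjusted p = 0.771). Zbtb20, a repressor of fetal liver genes, was at 34.2 and 54.8 CPM in PA replicates 1 and 2 and at 58.7 and 56.7 CPM in WT livers (edgeR adjusted p = 0.636). Hnf4a, the central hepatocyte factor, was at 511 and 568 CPM in PA replicates 1 and 2 and at 557 and 461 CPM in WT livers, where the lowest value was in WT replicate 2.

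Egfr, the epidermal growth factor receptor, a male-biased gene under growth hormone control in mouse liver, was at 45.8 and 71.3 CPM in PA livers and at 311 and 140 CPM in WT livers (log2 fold change -1.94, standard error 0.41, adjusted p = 0.114 by edgeR, 1.91e-05 by DESeq2 and 0.118 by limma-voom). Like Socs2, it was lower in both PA livers and higher in WT replicate 1 than in WT replicate 2.

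Angptl4 and Pdk4, which rise in fasted liver, were higher in replicate 1 of both genotypes, as Igfbp1 was, and were named after their values were seen. Angptl4 was at 173 and 42.4 CPM in PA livers and at 142 and 78.1 CPM in WT livers, and Pdk4 at 18.5 and 9.42 CPM in PA livers and at 15.7 and 5.18 CPM in WT livers, replicate 1 before replicate 2 in each.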
